A study of Homo sapiens with 12 samples.

Results

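The regions described here were those that the authors deposited for 22Rv1 cells treated with OSU-ERb-12 plus enzalutamide, called the combination list. The list held 6248 regions, 12.6% of the 49496 regions in the 3 lists of the study, and every region was kept. The other lists held 25317 regions for enzalutamide alone and 17931 for OSU-ERb-12 alone. 22Rv1 is an established human prostate cancer cell line, labelled WT for genotype in every group. Each group had 3 samples, described as biological replicates and all treated for 6 h, namely vehicle, enzalutamide (1 µM), OSU-ERb-12 (100 nM) and OSU-ERb-12 plus enzalutamide, whose own labels give no doses. Vehicle was taken as the comparison group, although no source states this for the lists. The list was matched to the combination through a prefix that it shares with sample titles, in which WT stands for OSU-ERb-12 without being explained, and oestradiol, which the growth protocol also mentions, is in no label of the 12 samples used here.

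The list gives positions without levels. It holds no value per library, and the only numeric field beside the coordinates is constant at 0. No difference therefore has a size, a replicate error or a test. No source defines whether a listed region was more or less accessible than in vehicle, and "held a region" below means only that a listed region lay there. A gene without a region may still have changed below the authors' unknown threshold. Markers of the cell line could not be checked, because the lists give no level for any gene. If all 3 lists come from comparisons with the single vehicle group, places that they have in common are not independent, so each list's own numbers are given side by side. Of all combination regions, 4698 (75.2%) overlapped neither single-agent list, the share against which such counts below are to be read. It was 48.6% for regions at gene starts and 79.6% for those in gene bodies.

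ATAC-seq marks open chromatin through insertion of adapters by a transposase, and the nucleosome-free fraction used here comes from short fragments, which mark promoters, enhancers and other sites where factors displace nucleosomes. Enzalutamide is an antiandrogen, which blocks the hormone signal on which most prostate cancers depend. OSU-ERb-12 binds oestrogen receptor beta, a steroid receptor found in prostate epithelium. Steroid receptors act largely at distal enhancers, where they bind beside factors such as FOXA1 and recruit coactivators and chromatin remodelling complexes.

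The promoters of 5 genes are shown because, among members of the gene lists described below, their promoter windows of 250 bases before and 50 after a start had the most bases inside a combination region. Printed are the 250 bases before the start, 5′ to 3′ on the gene's strand, from RefSeq on GRCh38.p14. PSMA3, a subunit gene of the 20S proteasome, was read from chr14:58244593-58244842 (plus strand), and all 250 bases lay in the region chr14:58244551-58244950. CHEK2, the gene of a DNA damage checkpoint kinase, was read from chr22:28741821-28742070 (minus strand), with 230 bases in a region. MRPL58, which encodes a protein of the mitochondrial large ribosomal subunit, was read from chr17:75012420-75012669 (plus strand), with 219 bases in a region. AXIN1, a scaffold gene of the beta-catenin destruction complex, was read from chr16:352724-352973 (minus strand), with 227 bases in a region. HSPA5, the gene of the endoplasmic reticulum chaperone BiP, was read from chr9:125241344-125241593 (minus strand), with 207 bases in a region. Capitals mark matches on either strand to the GC box GGGCGG, the CCAAT box CCAAT and the ETS core CGGAAG.
PSMA3: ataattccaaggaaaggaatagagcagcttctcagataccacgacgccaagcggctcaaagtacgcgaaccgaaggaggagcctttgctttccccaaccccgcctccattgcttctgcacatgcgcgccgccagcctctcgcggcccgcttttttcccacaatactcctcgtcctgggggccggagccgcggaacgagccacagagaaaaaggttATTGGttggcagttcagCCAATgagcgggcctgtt
CHEK2: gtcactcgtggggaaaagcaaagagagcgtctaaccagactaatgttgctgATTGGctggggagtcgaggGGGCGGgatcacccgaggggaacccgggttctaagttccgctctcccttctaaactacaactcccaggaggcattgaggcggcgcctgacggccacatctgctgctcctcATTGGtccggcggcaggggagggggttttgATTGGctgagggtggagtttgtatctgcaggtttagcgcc
MRPL58: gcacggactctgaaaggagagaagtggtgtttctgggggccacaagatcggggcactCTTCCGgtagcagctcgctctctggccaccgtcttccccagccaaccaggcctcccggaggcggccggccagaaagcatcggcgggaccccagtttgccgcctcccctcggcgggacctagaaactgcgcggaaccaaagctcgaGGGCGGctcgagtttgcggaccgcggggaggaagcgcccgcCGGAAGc
AXIN1: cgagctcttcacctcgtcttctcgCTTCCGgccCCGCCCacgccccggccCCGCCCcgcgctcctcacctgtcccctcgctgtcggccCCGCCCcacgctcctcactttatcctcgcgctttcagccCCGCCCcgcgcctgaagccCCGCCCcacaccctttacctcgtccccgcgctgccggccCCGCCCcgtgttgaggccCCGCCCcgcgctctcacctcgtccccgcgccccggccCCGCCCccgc
HSPA5: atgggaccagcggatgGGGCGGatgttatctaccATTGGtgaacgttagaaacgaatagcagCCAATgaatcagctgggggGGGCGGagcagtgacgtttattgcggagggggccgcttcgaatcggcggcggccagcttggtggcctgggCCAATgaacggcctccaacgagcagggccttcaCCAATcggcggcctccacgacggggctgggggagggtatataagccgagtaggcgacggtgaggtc

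These promoters differed in the motifs they carried. AXIN1 had 8 GC boxes and 1 ETS core, MRPL58 had 1 GC box and 2 ETS cores, and PSMA3 had 2 CCAAT boxes and neither of the others. CHEK2 had 3 CCAAT boxes and 1 GC box, and HSPA5 had 4 CCAAT boxes and 2 GC boxes. No match to the androgen response hexamer AGAACA or the oestrogen receptor hexamer AGGTCA lay in these 5 stretches. The regions at PSMA3 and MRPL58 overlapped regions of both single agents, and those at CHEK2, AXIN1 and HSPA5 overlapped none.

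Motif content was then counted over all promoter windows of the RefSeq table, each with 250 bases before and 50 after a start. Of 22175 windows from 15842 protein-coding genes, 416 (1.88%, from 382 genes) overlapped a combination region, compared with 2190 (9.88%) for enzalutamide and 307 (1.38%) for OSU-ERb-12. The overlapped windows were richer in GC, with a median of 66.7% against 62.3% for all windows, and 87.7% of them had an observed to expected CpG ratio above 0.6, against 62.1% of all. The enzalutamide windows had the same median GC of 66.7%, with 83.4% above that CpG ratio. For OSU-ERb-12 the values were 63.3% and 73.9%. The ETS core was present in 34.6% of the 416 windows (exact 95% interval 30 to 39.4) and in 23.7% of all windows, with 27.2% for enzalutamide windows (25.4 to 29.1) and 26.4% for OSU-ERb-12 windows (21.5 to 31.7). The GC box was found in 72.1% (67.5 to 76.4) against 56.3% of all, and in 72.5% of the enzalutamide windows. The NRF1 core, bound by a regulator of nuclear genes for mitochondria, was present in 12% (9.05 to 15.5), against 7.39% of all windows.

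Hormone response motifs were less frequent in these promoter windows than in all windows. The androgen response hexamer AGAACA matched in 7.69% of the combination windows (5.32 to 10.7) and 11.8% of all, and the oestrogen receptor hexamer AGGTCA in 7.45% (5.12 to 10.4) and 11.9%. The TATA box TATAAA was present in 3.37% (1.85 to 5.58) against 9.47%. Single-agent windows were also below all windows in these 3 motifs. For enzalutamide and OSU-ERb-12 the shares were 7.58% and 7.82% for AGAACA, 8.22% and 10.1% for AGGTCA, and 5.07% and 5.54% for TATAAA. In the 193 combination windows counted in neither single-agent list, AGAACA matched in 9.84% (6.03 to 14.9) and AGGTCA in 8.81% (5.22 to 13.7). Both intervals include the shares of all windows, while TATAAA stayed below its share at 2.59% (0.846 to 5.94). The GC-rich composition moved with these shares, and its part in them was not tested. CCAAT (38.2% against 34.7%), the cyclic AMP response core TGACG (33.9% against 27.9%), the MYC-type E-box CACGTG (10.1% against 8.34%), the AP-1 site TGANTCA (4.33% against 6.14%) and the FOXA core TGTTTAC (3.37% against 2.85%) were also counted. Both strands were searched, and matches of different motifs can overlap, as a GC box with an ETS core. Intervals cover the counting of windows only, and a match is a run of letters, not a bound site.

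Most combination regions lay away from gene starts. Within 1 kb of a listed start of a protein-coding gene were 764 regions, 12.2% of the list (exact 95% interval 11.4 to 13.1), between 19.2% for enzalutamide (18.7 to 19.7) and 5.66% for OSU-ERb-12 (5.33 to 6.01). The largest class was the body of protein-coding genes, with 2614 regions or 41.8% (40.6 to 43.1), again between 36.0% for enzalutamide and 45.3% for OSU-ERb-12. No annotated gene was touched by 1840 regions (29.4%, 28.3 to 30.6), and 716 (11.5%) touched only a long non-coding RNA, pseudogene or other annotated gene. Gene 3′ ends held 148 regions (2.37%), and 166 (2.66%) lay at an end of a gene whose start was not listed. These shares are not set against the share of the genome that each class covers, so they show no excess or lack in a class. The intervals for gene starts did not overlap between lists. No test of these differences was made, since regions are not replicates.

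**Figure D1:**
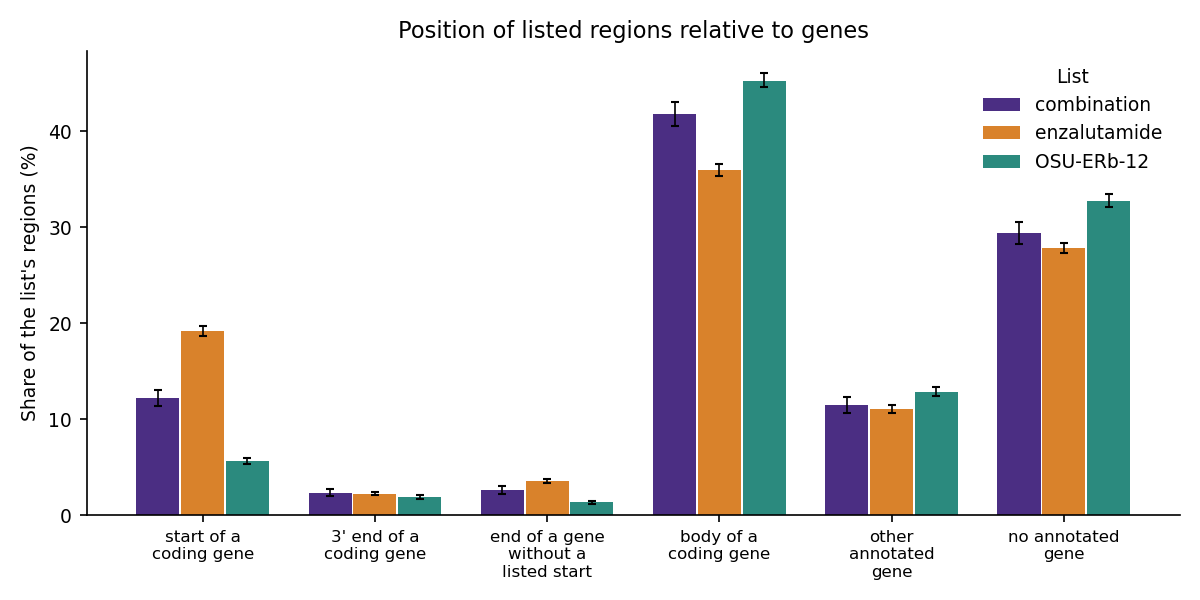
Share of each list's regions (y axis, percent) by position relative to genes (x axis) for the combination, enzalutamide and OSU-ERb-12 lists. Bars show the share and error bars the exact 95% binomial interval, which covers the counting of regions only. At gene starts the combination (12.2%) stands between enzalutamide (19.2%) and OSU-ERb-12 (5.66%).

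Next to the start itself, combination regions were about as many upstream as downstream. On the chromosomes with listed starts, 180 regions were centred within 250 bp upstream and 178 within 250 bp downstream of the nearest start. For enzalutamide the same counts were 786 and 986. Within 1 kb, 5.93% of combination regions lay upstream and 6.77% downstream, compared with 7.81% and 11.7% for enzalutamide and 2.35% and 3.36% for OSU-ERb-12. In bins of 200 bp the combination reached 2.49% just upstream and 2.52% just downstream of the start. The enzalutamide list was highest from the start to 200 bp downstream (3.33%) and still reached 3.09% in the next bin, where the combination had 1.9%. Over all distances the median was 35.4 kb from the nearest start for the combination, 30.4 kb for enzalutamide and 48.1 kb for OSU-ERb-12. Regions at least 300 bp wide made up 14.3% of the combination list, 37.0% of the enzalutamide list and 14.8% of the OSU-ERb-12 list.

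**Figure D2:**
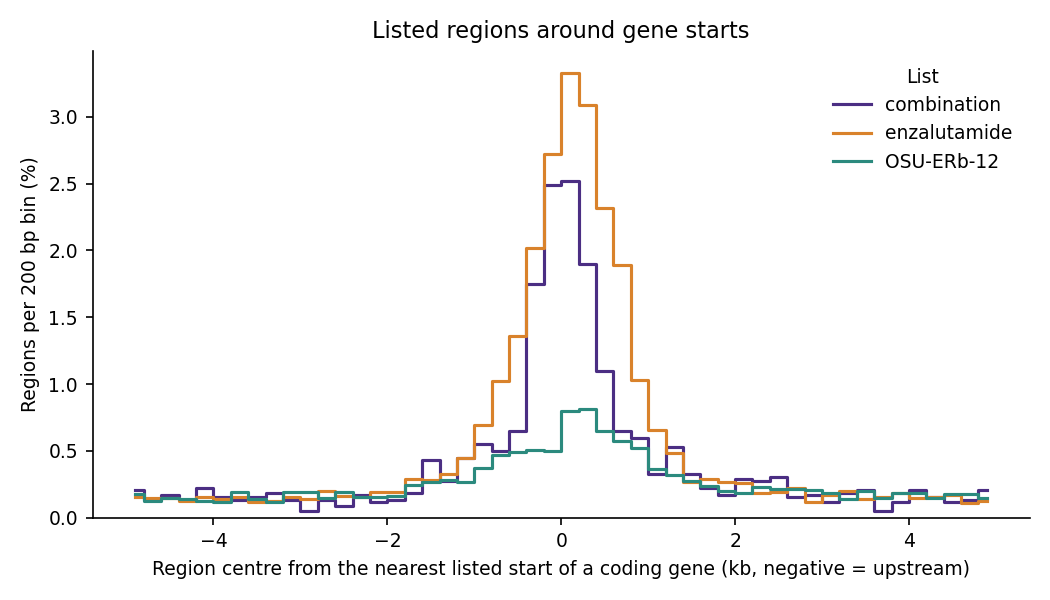
Share of each list's regions (y axis, percent per 200 bp bin) by distance of the region's centre from the nearest listed start of a protein-coding gene (x axis, kb, negative is upstream). Lines are the 3 lists without chromosome 8, which has no listed starts. The combination peaks at 2.49% and 2.52% on either side of the start, and enzalutamide downstream of it.

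A combination region lay within 1 kb of a listed start for 811 of 15842 protein-coding genes (5.12%), and 4628 and 1073 genes had one for enzalutamide and OSU-ERb-12. Of the 811 genes, 495 (61.0%) also had an enzalutamide region within 1 kb of a start and 192 (23.7%) an OSU-ERb-12 region. Only 257 (31.7%) had neither, so a start region that overlaps no single-agent region can still have one nearby. Start regions of protein maintenance genes included HSPA5, the cochaperone genes DNAJB9 and DNAJA1, CHORDC1, the disulfide isomerase gene PDIA6 and PPP1R15B, which encodes a subunit that dephosphorylates eIF2 alpha. These 6 were among 40 heat shock and unfolded protein response genes with a listed start (the share over all genes is the 5.12% above). The region of DNAJB9 (chr7:108569551-108569750) was centred at -224 bp from its start (negative is upstream), and that of DNAJA1 (chr9:33025001-33025200) at -172 bp. Neither overlapped a single-agent region, while CHORDC1 was in both single-agent lists and PDIA6 in the enzalutamide list.

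Genes of histone acetylation also held 6 start regions, among 32 with a listed start. They were the deacetylase genes HDAC2, HDAC10, HDAC11 and SIRT2, the acetyltransferase gene KAT6B, and MIDEAS, which encodes a partner of class I deacetylases. The HDAC2 region (chr6:113971451-113971650) was centred at -402 bp from the start and the HDAC10 region (chr22:50250951-50251150) at 214 bp. Histone methylation genes held 4 start regions of 49, at the H3K27 methyltransferase gene EZH1, the demethylase genes KDM5C and KDM6B, and SMYD3.

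Other lists had a few start regions each, to be read against the 5.12% of all genes with a listed start. Start regions of 4 of 48 DNA repair genes lay at CHEK1, CHEK2, the nuclease gene ERCC4 and XRCC6, which encodes Ku70. Cell cycle genes had 4 of 43, at CCNE1 (cyclin E1), E2F2, SKP1 and CDK9, a kinase of transcription elongation. Splicing genes had 4 of 42, at HNRNPU, SF3A1, SF3B2 and SRSF10. Components of the ubiquitin system included the start regions of CUL3 (chr2:224585551-224585750) and FBXW7 (chr4:152535801-152536000), genes of a cullin scaffold and a substrate receptor. Of 42 proteasome genes, PSMA3, PSMC5 and PSMD3 had one. In signalling, AKT1 held a region centred at -2 bp from its start (chr14:104795601-104795900) that overlapped both single-agent lists. JAG2, NUMB and HHIP, genes of a Notch ligand, a Notch inhibitor and a Hedgehog antagonist, made up 3 of 29 in those pathways.

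Several regions lay between genes that start back to back. Of the 764 start regions, 63 (8.25%) were within 1 kb of the starts of 2 or more genes, and in 60 of these the genes were on opposite strands. No such share is given for all listed starts or for the single-agent lists. The 8.25% is therefore not read as a trait of this list. CHEK2 shared its region (chr22:28741701-28742050) with HSCB, an iron-sulfur cluster cochaperone gene, and XRCC6 shared one with DESI1 (chr22:41620601-41620850). Chaperonin genes did so at CCT3 with TSACC (chr1:156338351-156338550) and at CCT4 with COMMD1 (chr2:61888601-61888800). Other such pairs were NFYA and OARD1, where NFYA encodes a subunit of the factor that binds the CCAAT box, RUVBL1 and EEFSEC, APTX and DNAJA1, and NFKBIB and SIRT2. These were picked from the 63 pairs after the values were seen. The widest combination region of all, 800 bp at chr3:112562001-112562800, lay at the facing starts of ATG3, an autophagy conjugation enzyme gene, and SLC35A5.

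The other widest regions were of mixed kind. At MEMO1 a region of 750 bp (chr2:32010001-32010750) lay at an end of the gene, and at ATP6V1B2, a subunit gene of the vacuolar proton pump, one of 700 bp (chr8:20197051-20197750). PYGB, the brain glycogen phosphorylase gene, held 650 bp at its start (chr20:25248001-25248650), and RYR1, a calcium release channel gene, 650 bp in its body (chr19:38543851-38544500). Another 650 bp region (chr8:27083751-27084400) had no gene, with STMN4 the nearest at 150908 bp. A region of 600 bp at a listed gene start touched both BNIPL and C1orf56, but was not near the listed starts of both. Others of that width lay at the start of APEH and in the body of RALGPS2. Away from genes, such regions lay 98177 bp from FCRL5 and 2776 bp from FRMD8. Only 16 combination regions reached 500 bp, and 4249 (68.0%) had the smallest width of 200 bp.

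Density along the genome was uneven. Chromosome 19 carried 4.23 regions per Mb, 2.09 times the mean of the list, and chromosome 12 carried 3.62, 1.79 times the mean. Chromosomes 1, 20, 17, 7, 3 and 8 followed with 3.27, 3.05, 3.04, 2.99, 2.98 and 2.87 per Mb. Chromosome 13 had 0.901 per Mb, chromosome X 0.391 and chromosome Y 0.105 (6 regions). Chromosome 19 was also above the mean in the other lists, at 1.94 times for enzalutamide and 1.64 times for OSU-ERb-12. Counted per 100 protein-coding genes, it had 17.1 combination regions, the fewest of any autosome. Chromosomes 8, 3, 7 and 12 had the most by that count, with 58.2, 55.3, 50.9 and 47.1. Of the 61 regions on X, 44.3% lay at gene starts, against 12.2% of the whole list, among them the starts of KDM5C and RPS4X. The autosomes with listed starts ranged from 7.27% on chromosome 21 to 26.6% on chromosome 19 in this share. Chromosomes 1, 3, 7, 8 and 12, singled out after an earlier look at these lists, held 44.5% of combination regions, 37.1% of enzalutamide and 50.0% of OSU-ERb-12 regions, on 28.7% of the sequence extent and with 29.0% of protein-coding genes.

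**Figure D3:**
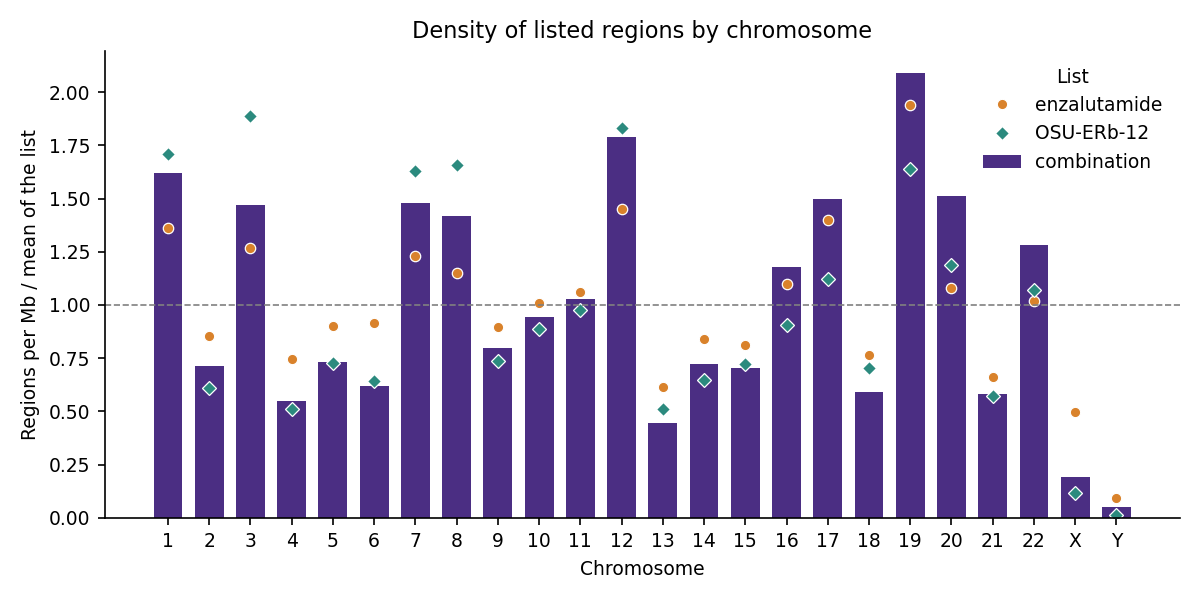
Regions per Mb on each chromosome (x axis) divided by the list's genome-wide mean (y axis, ratio), with bars for the combination and symbols for enzalutamide and OSU-ERb-12. The dashed line marks the mean. Chromosomes 19 and 12 stand highest for the combination at 2.09 and 1.79, and X and Y lowest.

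In 631 windows of 5 Mb the median was 7 combination regions. The highest count, 47, fell on chromosome 12 from 50 to 55 Mb, which holds the HOXC cluster and RARG and has 114 protein-coding genes. Chromosome 1 had 46 regions from 200 to 205 Mb, 44 from 150 to 155 Mb and 43 from 155 to 160 Mb, and chromosome 3 had 43 from 50 to 55 Mb. The enzalutamide and OSU-ERb-12 lists held 109 and 97 regions in the densest of these windows. At the other end, 58 windows held no combination region, and 37 of those contained protein-coding genes. Density did not simply follow gene number. The window on chromosome 6 from 30 to 35 Mb had 5 regions and 165 protein-coding genes, and the last window of chromosome 7, from 155 Mb, had 29 regions and 19 genes; both were picked after the values were seen.

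Tight clusters were rare. Chaining regions no more than 10 kb apart gave 10 clusters of at least 3 regions, with 31 regions in all (0.496% of the list) and a median span of 11.4 kb. The only cluster of 4 ran from the start of SH2D1B, a signalling adaptor gene of natural killer cells, to the upstream side (chr1:162412101-162425250). All 4 regions were 200 bp wide and in neither single-agent list, as were 75.2% of all combination regions for the latter. The most compact cluster spanned 1.80 kb at ECT2, an exchange factor gene needed for cytokinesis (chr3:172749401-172751200). Its outer regions, centred at -1226 and 74 bp from the start, overlapped both single-agent lists, and the middle one, at -300 bp, overlapped neither.

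At CTDSP1, which encodes a small phosphatase acting on RNA polymerase II, a cluster of 3 began inside the gene (chr2:218402701-218402900) and continued 1510 and 2360 bp beyond its end. The first region reached into the hairpin of the microRNA gene MIR26B (chr2:218402646-218402722, plus strand), which lies in CTDSP1, and overlapped neither single-agent list. Its mature sequences from RefSeq are shown because this was 1 of 6 microRNA genes, of 1913, that a combination region touched; capitals mark the seed, bases 2 to 8.
hsa-miR-26b-5p: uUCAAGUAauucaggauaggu
hsa-miR-26b-3p: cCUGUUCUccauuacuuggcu

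The tumour suppressor kinase gene STK11 held 3 regions in its locus, at chr19:1219201-1219400 and chr19:1224201-1224450 inside the gene and at chr19:1232101-1232300 in the neighbouring CBARP. XYLT2, a proteoglycan xylosyltransferase gene, held 2 in its body and 1 beyond its end (chr17:50354851-50363700). KCNJ9, a potassium channel gene, had 1 in its body and 2 outside it (chr1:160073751-160083800). LSM5, an RNA processing gene, had 1 near its start and 2 outside it (chr7:32475251-32489850). At RAB26, a vesicle GTPase gene, the cluster extended into TRAF7 (chr16:2143501-2163500), and at CPXM1 it began in the gene and ended 5924 bp outside (chr20:2795351-2806800). The remaining cluster, chr1:177421851-177433250, touched no gene, with BRINP2 the nearest at 139429 bp.

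**Figure D4:**
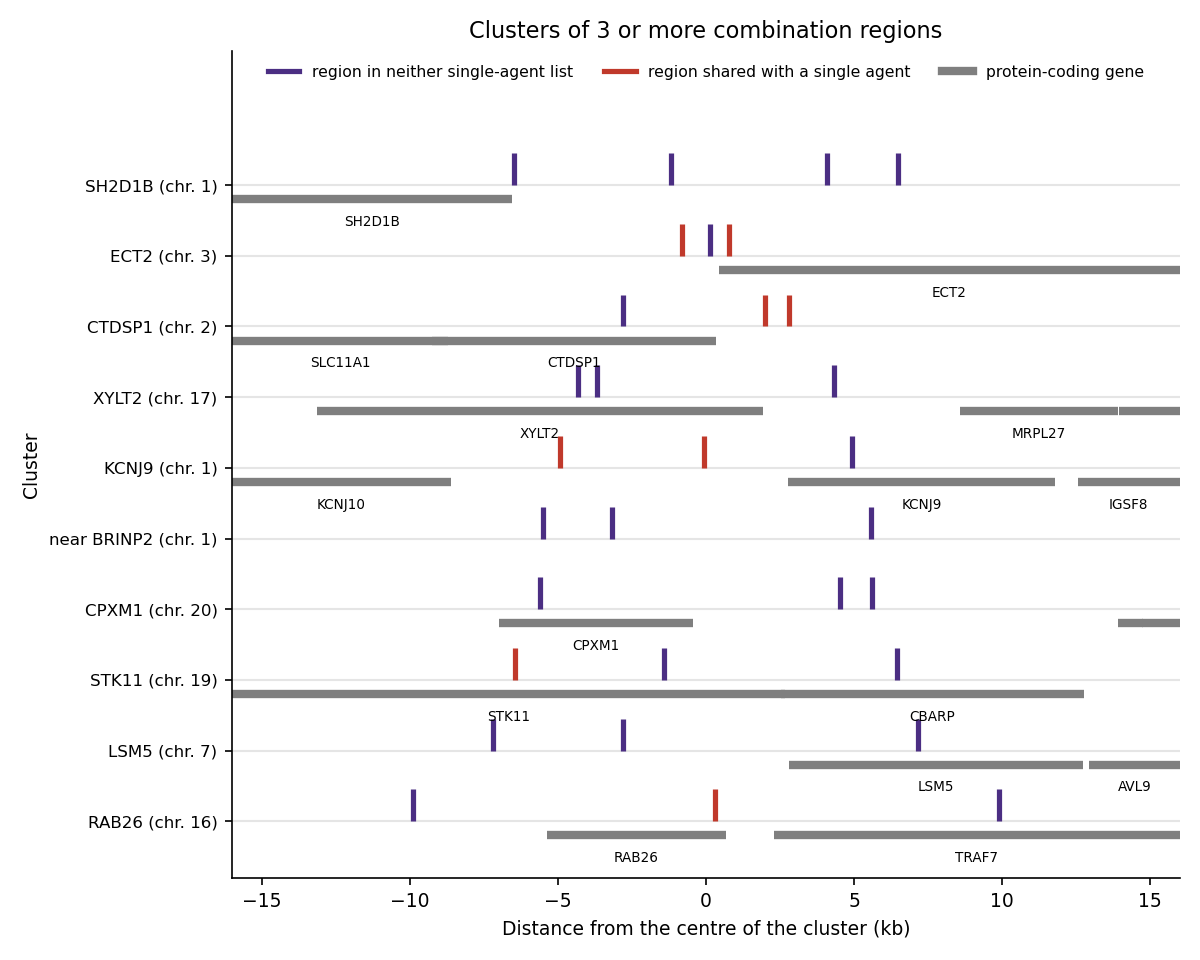
Regions of the 10 clusters by distance from the centre of the cluster (x axis, kb), 1 row per cluster. Upright marks are regions, dark where in neither single-agent list and red where shared with at least 1, and grey bars are protein-coding genes. ECT2 is the most compact at 1.80 kb, and SH2D1B is the only row with 4 marks.

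Counted per gene, 4353 of 20037 protein-coding genes (21.7%) held a combination region in their locus, meaning the gene with 10 kb on either side. An enzalutamide region was in the locus of 58.3% of these genes and an OSU-ERb-12 region in 39.1%, the shares against which counts for the longer single-agent lists are to be read. A single combination region was the rule, for 3437 genes, while 713 held 2 and 203 held 3 or more. Long genes held regions more often, from 10.8% of the shortest decile of loci (median 21.6 kb) to 42.7% of the longest (median 270 kb). The 203 genes with 3 or more had a median locus of 253 kb, against 44.1 kb for all genes. Every list of genes below is therefore given beside the share among protein-coding genes of like locus length.

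Several of the genes with the most regions are long genes known from neurons. Of the 9 genes with 6 regions, TNR (extracellular matrix of neurons), EPHB1 (an ephrin receptor), PLXNA4 (a semaphorin receptor), RBFOX3 (a neuronal splicing factor) and KALRN (an exchange factor of dendritic spines) had loci of 448.4 to 713.0 kb. At EPHB1 all 6 lay in the body, from chr3:134829801-134830000 to chr3:135238251-135238450, where the OSU-ERb-12 list held 10 regions and the enzalutamide list 3. At RBFOX3 all 6 combination regions were in neither single-agent list, although those lists held 3 (enzalutamide) and 6 (OSU-ERb-12) regions in the same locus. KALRN likewise had 6 of its own, beside 10 enzalutamide and 15 OSU-ERb-12 regions. Over the whole list, 79.6% of gene-body regions were in neither single-agent list. MAGI1, a scaffold gene of tight junctions (705.4 kb), RPS6KC1 (831.5 kb) and CSMD1 (2079.6 kb) also held 6.

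FAM53A was the exception among genes with 6, with a locus of only 132.0 kb. That is 4.55 regions per 100 kb, against 1.34 at TNR and 0.289 at CSMD1. Its regions lay at chr4:1567151-1567350, chr4:1614851-1615050, chr4:1624301-1624500, chr4:1639051-1639250, chr4:1645551-1645800 and chr4:1670701-1670950, of which the fifth overlapped an OSU-ERb-12 region, and the enzalutamide list held 4 others in the locus. GRIP2, which encodes a scaffold of glutamate receptors, held 5 in 133.9 kb (3.73 per 100 kb), of which 3 overlapped enzalutamide regions. The other genes with 5 that the naming rule took were CTIF, PRDM16, FRMD4B, DSCAML1 and TMEM132C, with loci of 344.2 to 460.7 kb.

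Over 43 gene lists with 2129 genes, 473 members (22.2%) held a region, against 21.2% among genes of like locus length, a difference of about 1 percentage point. Single lists ranged from 1.03% for olfactory receptors to 60.6% for protocadherins, and 23 of the 43 were above the share for their locus length. Olfactory receptors made up 390 of the 2129 genes, and 4 held a region, where 14.1% at like locus length would give 55.1. This 1 list thus pulled the joint 22.2% down towards the 21.2%, and the small difference does not describe the other lists. No list was tested, and the counts describe positions only.

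Genes of the receptors and of hormone response came first. Of 48 nuclear receptor genes, 19 (39.6%) held a combination region, against 26.9% at like locus length, and 0 of the 41 with a listed start held one there, where the 5.12% of all genes would give about 2. PPARD, a fatty acid receptor gene, held 3, all in its body (chr6:35368451-35368650, chr6:35401601-35401950 and chr6:35412851-35413050). RARG, a retinoic acid receptor gene, held 2 upstream, at chr12:53237201-53237400 and chr12:53239651-53239900, and RARB and the mineralocorticoid receptor gene NR3C2 held 2 each in their bodies. None of these 9 regions overlapped a single-agent list, which was also so for 75.2% of all combination regions. ESR1, the gene of oestrogen receptor alpha, had 1 region 4122 bp upstream (chr6:151652351-151652550), which no single-agent region overlapped, although the enzalutamide list held 6 others in the locus and the OSU-ERb-12 list 0. ESR2, the target of OSU-ERb-12, held no combination region, with 3 enzalutamide and 2 OSU-ERb-12 regions in the locus.

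Androgen response genes held a combination region at 6 of 44 (13.6%), against 24.8% at like locus length, and 35 and 22 of the same genes held an enzalutamide and an OSU-ERb-12 region, beside 58.3% and 39.1% of all genes. The 6 were MAF with 2 regions, the metalloreductase gene STEAP2, the prostaglandin dehydrogenase gene HPGD, UAP1 of hexosamine synthesis, ZBTB10 and PMEPA1. At UAP1 the region was centred at -22 bp from the start (chr1:162561601-162561800) and overlapped no single-agent region, and at STEAP2 it was centred at 510 bp (chr7:90212151-90212350), also in the enzalutamide list. KLK2, KLK3, TMPRSS2, FKBP5, NR3C1 and PGR held 0. Glucocorticoid response genes had 1 of 20 (5.0% against 19.9%), ZBTB16 with 2 regions, and coregulator genes 5 of 29 (17.2% against 30.5%), where SIN3A held 2 and PRMT1, RCOR1, NCOA3 and NCOR1 held 1 each.

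Oestrogen response genes held a region at 11 of 29 (37.9% against 23.2%). ADCY9, an adenylate cyclase gene, held 2, and BCL2, which encodes an inhibitor of apoptosis, and the chemokine gene CXCL12 held 1 at the start. Among prostate lineage factors 7 of 23 held one (30.4% against 22.8%), led by GRHL2 with 2 inside the gene. Luminal and basal markers had 1 of 24 (4.17% against 22.8%), CDH1, the E-cadherin gene.

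Immediate early and AP-1 genes, which respond within minutes to growth signals, held a combination region at 14 of 32 (43.8%), against 15.7% at like locus length. KLF2, a flow-responsive transcription factor gene, held 2 at its start, centred at -26 bp (chr19:16324701-16324900, in neither single-agent list) and 624 bp (chr19:16325351-16325550, in both). Start regions were also present at JUND (chr19:18282101-18282300), FOSL2 (chr2:28392451-28392700) and DUSP6, a MAP kinase phosphatase gene (chr12:89352751-89353050). At FOS, EGR1, KLF4 and NR4A1 the region lay at the 3′ end, for EGR1 448 bp beyond the gene (chr5:138469751-138469950). Their median locus was 24.7 kb, and with the gene body alone 3 of 32 held a region, beside 13.9% of all protein-coding genes. The enzalutamide and OSU-ERb-12 lists had a region at 25 and 17 of the 32, beside the same 58.3% and 39.1%.

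Among chromatin genes, start regions were unevenly spread over the lists. Of 50 remodelling genes 20 held a region (40% against 27.4%), with 2 of 39 at a start, MTA2 and BCL7A. CHD5 held 3, MTA1, CHD2, CHD6 and DPF3 held 2 each, and SMARCA4, the gene of the BRG1 ATPase, held 1 in its body (chr19:10998751-10998950). Histone acetylation genes had 14 of 39 (35.9% against 23.9%), and the 6 of 32 at a start named above were 18.8%, against 5.12% of all genes. HDAC4 held 4 in its body between chr2:239049951-239050150 and chr2:239279451-239279800, and MIDEAS held 4. Histone methylation genes had 16 of 54 (29.6% against 27.3%).

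Axon guidance and channel genes were among the lists with the highest shares, while neuroendocrine and neural plasticity genes had 5 of 26 (19.2% against 20.7%). Axon guidance genes held a region at 28 of 57 (49.1% against 29.4%), with 43 regions in all. EPHB1, SEMA3B, PLXND1 and several other members lie on chromosome 3, at 1.47 times the mean density of the list. Enzalutamide and OSU-ERb-12 regions were at 46 and 37 of the 57, beside 58.3% and 39.1% of all genes of any locus length. SEMA6A held 4, and SEMA3B, SEMA4A, PLXND1, UNC5B, SLIT1, SLIT3 and DCC held 2 each. Potassium and calcium channel genes held one at 27 of 58 (46.6% against 31.6%) with 50 regions, and the single-agent lists had one at 45 (enzalutamide) and 42 (OSU-ERb-12). CACNA1E and the cardiac release channel gene RYR2 held 5 each and KCNH1 held 4, all on chromosome 1, which is dense in this list. The 4 regions of KCNH1 lay in its body from chr1:210848401-210848600 to chr1:210996151-210996350 and overlapped no single-agent region, as did 79.6% of all gene-body regions.

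**Figure D5:**
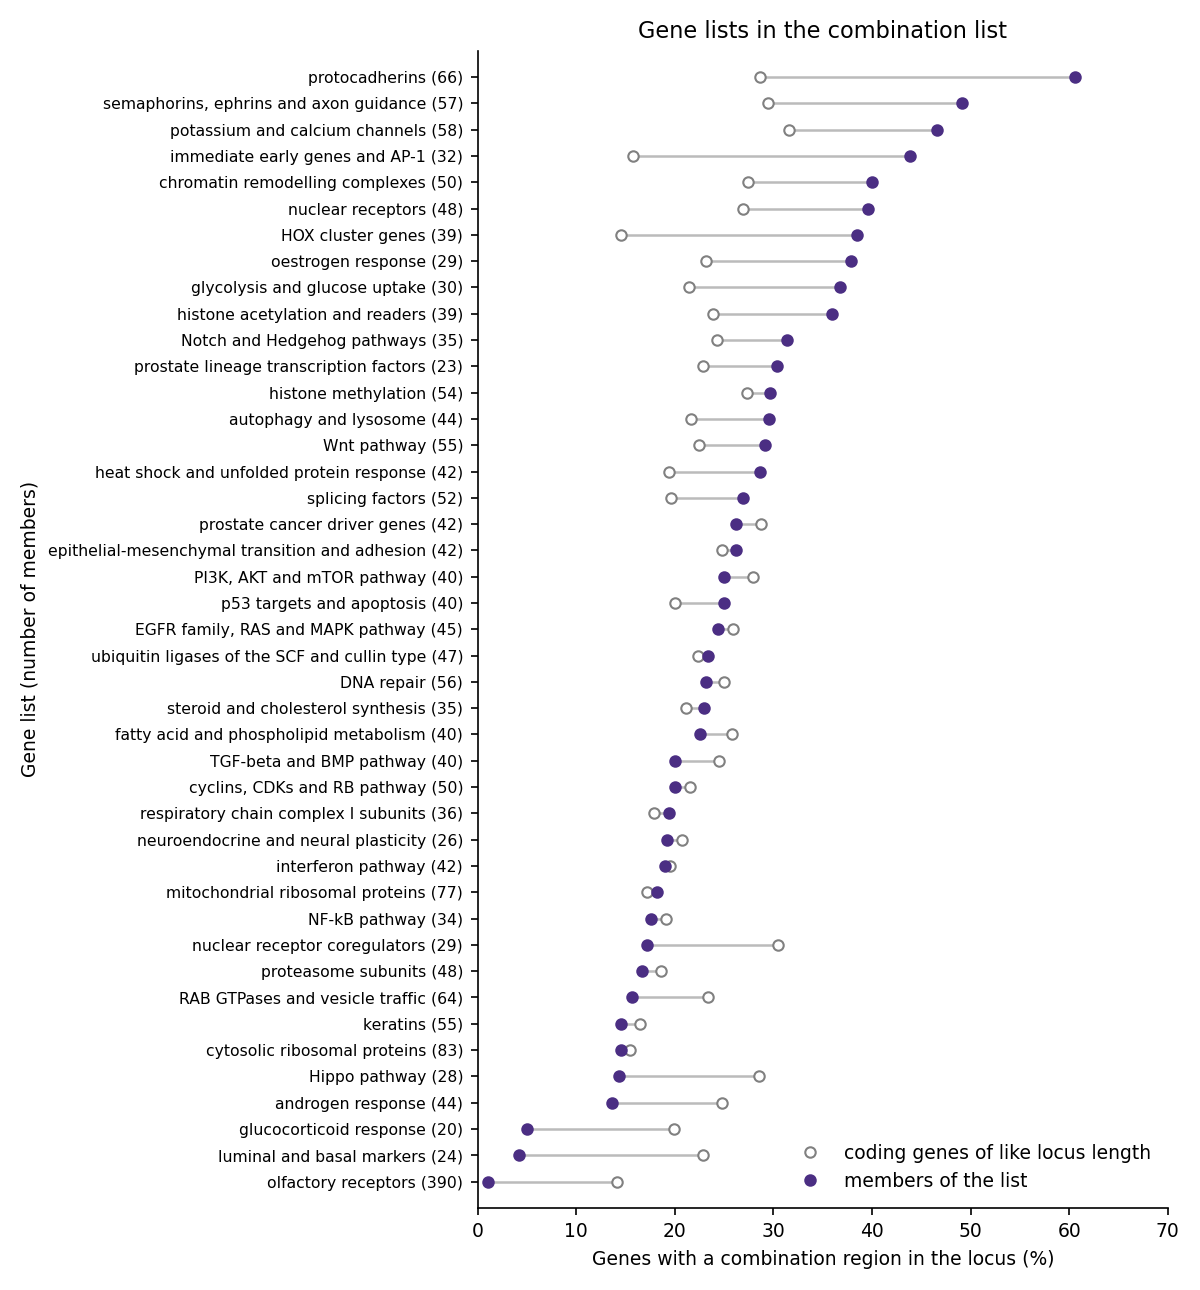
Share of members with a combination region in the locus (x axis, percent, filled circles) for each of 43 gene lists (y axis, number of members in parentheses), beside the share among protein-coding genes of like locus length (open circles). Protocadherins stand highest at 60.6% and olfactory receptors lowest at 1.03%.

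Clustered gene families needed a separate reading, because neighbours share regions. The 40 of 66 protocadherin genes with a region (60.6% against 28.6%) rested on 6 distinct regions. The region chr5:140967401-140967700 lay within the long transcripts of the alpha cluster and 1074 bp after the start of PCDHAC2, and chr5:141505551-141505750 did so for the gamma cluster. The 15 of 39 HOX genes (38.5% against 14.5%) rested on 8 distinct regions. HOXC4, HOXC5 and HOXC6 shared chr12:54016451-54016650 and chr12:54039701-54039900, and HOXA10, HOXA11 and HOXA13 shared chr7:27189351-27189600. With the gene body alone, 4 of the 39 HOX genes held a region, beside 13.9% of all protein-coding genes. Keratin genes gave 8 of 55 on 8 regions (14.5% against 16.5%).

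Metabolic genes were mixed. Glycolysis genes held a region at 11 of 30 (36.7% against 21.4%). In the gene body alone 5 of 30 held one, beside 13.9% of all protein-coding genes. At a listed start 0 of 26 did, beside 5.12% of all genes with a listed start. TPI1 held 2, and GAPDH, ALDOA, ENO1, HK1 and SLC2A1 held 1 each, for ENO1 inside the gene (chr1:8862701-8862900). In fatty acid metabolism (9 of 40, 22.5% against 25.8%) ACACB, an acetyl-CoA carboxylase gene, held 4 in its body from chr12:109166751-109166950 to chr12:109223851-109224050. These 4 were in neither single-agent list, as were 79.6% of all gene-body regions, and DGKA held 4. Steroid and cholesterol genes had 8 of 35 (22.9% against 21.1%), led by MVK, the mevalonate kinase gene, with 2.

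Signalling and housekeeping lists varied in their distance from the share for their locus length. Wnt genes had 16 of 55 (29.1% against 22.4%), where DVL2, AXIN2, LEF1 and TCF7L1 held 2 each. Notch and Hedgehog genes had 11 of 35 (31.4% against 24.3%), heat shock genes 12 of 42 (28.6% against 19.4%), autophagy genes 13 of 44 (29.5% against 21.6%) and splicing genes 14 of 52 (26.9% against 19.6%). PI3K and mTOR genes had 10 of 40 (25% against 27.9%), with 4 at INPP5D, the gene of the phosphatase SHIP1, and 3 at RPTOR. Hippo genes were further below it, with 4 of 28 (14.3% against 28.5%), of which STK3 held 3 regions. DNA repair genes had 13 of 56 (23.2% against 25%), cell cycle genes 10 of 50 (20.0% against 21.5%), cytosolic ribosomal protein genes 12 of 83 (14.5% against 15.4%), mitochondrial ones 14 of 77 (18.2% against 17.2%) and proteasome genes 8 of 48 (16.7% against 18.6%).

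Among non-coding genes, 907 of 18303 long non-coding RNA genes (4.96%) were touched by a combination region, against 2792 of 20037 protein-coding genes (13.9%). The most were in CIBAR1-DT on chromosome 8 with 4. LINC02981 on chromosome 7 held 3 although neither single-agent list had a region there. Of 259 regions at the listed start of a long non-coding RNA, 144 (55.6%) were also at the start of a protein-coding gene. Besides MIR26B, the microRNA genes touched were MIR7706, MIR636, MIR6791, MIR3188 beside JUND, and MIR3960 at CDK9. Regions also touched 4 of 443 transfer RNA genes and RNU4-2, which encodes the U4 RNA of the spliceosome (chr12:120291651-120291850). SNORD79, 1 of 1199 small nucleolar RNA genes, was touched only at its outermost base.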

How the data were processed

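ATAC-seq of 22Rv1 cells was available as 3 lists of regions. Per the labels' protocols, ATACSeqQC separated the nucleosome-free fragments. Per the submitters' processing notes, Trimmomatic, FastQC and hg38 were used. Not given in the sources used here were the caller, the test and its threshold, how replicates were pooled, whether reads were shifted, and which direction a listed difference has. The deposited values are region coordinates on a 50 bp grid, and the deposited score is 0 in every row, so depth per sample is unknown and no model was fitted.

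Genes and long non-coding RNAs came from RefSeq for GRCh38.p14, the same build, and printed positions are 1-based. Starts came from the RefSeq promoter table, which lists 22175 windows for 15842 of 20037 protein-coding genes (79.1%) and none on chromosome 8, so shares at starts are lower limits. Classes were assigned in the order start, 3′ end, end without a listed start, gene body, other gene, none. A locus was the gene with 10 kb on either side. Regions of 2 lists overlapped if they shared 1 bp. The share at like locus length weights the 10 deciles of locus length as in the list. Intervals are Clopper-Pearson at 95%. Promoter members of gene lists were ranked by bases in a region. The procedures were tested on simulated data.

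The members, the gene lists and the alternatives were chosen with earlier results of these data known. Genes were named by a rule: genes at the clusters, the 15 genes with the most regions, the 10 widest regions, up to 4 members per list, 14 fixed receptor, lineage and androgen-regulated genes, and listed promoters. Not all genes named by it are reported here. Members at gene starts, further members of a list and non-coding genes were added after the values were seen. Python 3.11.15, pandas 2.3.3, numpy 2.4.6, scipy 1.17.1 and matplotlib 3.10.9 were used.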

Additional observations from a re-analysis of the deposited data

How the results depend on the processing

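No paired analysis was possible because the lists hold no values per library, and for the same reason no replicate could be left out. The share of combination regions at gene starts (12.2%) was 9.8% with 0.5 kb either side of the start, 19.4% with 5 kb, 13.5% among regions wider than 200 bp and 15% without chromosomes 1, 3, 7, 8 and 12. The share in gene bodies (41.8%) was 53.3% when bodies of all annotated genes counted and 39.8% among wider regions. The 4353 genes with a region became 2792 with the gene body alone, 7944 with 50 kb on either side and 1632 with wider regions, and the 473 list members became 298, 828 and 177. The lists as a whole stayed near all genes under these settings (14.0% against 13.9%, 38.9% against 39.6%, and 8.31% against 8.14%). These shares include the 390 olfactory receptors, which lower the joint share in the main setting. The 10 clusters became 3 with chaining at 5 kb, 68 at 25 kb and 1 with wider regions. The 24.8% of regions that overlapped a single-agent list became 28.3% with neighbours within 500 bp, 32.7% with wider regions and 26.5% without those 5 chromosomes. The lists may share the vehicle samples. The 416 promoter windows became 204 when a single region had to cover at least 0.5 of the window's bases. Leaving out the 5 chromosomes was chosen after the data were seen. Of 58 counts for single lists and genes, 28 moved by over 1.5 times with the gene body alone, 34 with 50 kb and 55 with wider regions. The settings with wider regions keep fewer regions by construction; otherwise the cause was not tested.

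The main limits are the missing direction, levels and depth, starts listed for 79.1% of genes, and a match of the files to treatments that rests on title prefixes.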
